A study of Homo sapiens with 27 samples.

Results

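The transcriptomes of H1 human embryonic stem cells (hESCs) differentiating on 2 laminin coatings, LN523 and LN521, were compared at day 22. The comparison used 6 of the 27 bulk RNA-seq libraries of the series, 3 grown on LN523 and 3 on LN521. They were chosen by matrix and day alone, and each replicate number was also the number of a sequencing lane. H1 is an established hESC line. In both groups the cells had received CKI-7 and SB431542 from day 2, and then photoreceptor differentiation medium with BDNF, CNTF, retinoic acid, and the Notch pathway inhibitor DAPT. The coating labels read Laminin 523 + Laminin 323 for the first group and Laminin 521 + Laminin 323 for the second, whereas the methods describe LN523 mixed with LN521 and LN521 used alone. The groups are therefore named by their leading isoform, and the other laminin in the coating is uncertain. The sample titles call the same time point day 20. No source used here states whether replicates came from separate cultures, so the p-values measure the spread between these libraries, which may be technical.

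Laminins are heterotrimers of an alpha, a beta, and a gamma chain that build basement membranes and bind integrins and dystroglycan on cells. LN523 and LN521 share their alpha and beta chains and differ in the gamma chain, encoded by LAMC3 in the first and LAMC1 in the second. During eye development the optic vesicle separates into neural retina and pigment epithelium, marked by MITF and the melanin enzymes, and neural retina progenitors leave the cycle under proneural bHLH factors to become ganglion cells, photoreceptors, and other neurons.

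Total counts ran from 34767018 to 41764735 on LN523 and from 35082137 to 40679201 on LN521. Levels are given as CPM, counts scaled to a common library total after TMM correction, and each difference is a log2 fold change of LN523 against LN521. Of the non-zero counts, 68.9% were even. Libraries within a group were far from identical. Among 16123 genes with a mean of at least 1 CPM, LN523 replicate 2 was over 2-fold above both other LN523 libraries in 945 genes and over 2-fold below both in 838, after adding 1 CPM. The corresponding counts were 116 and 163 for LN523 replicate 1, and 57 and 18 for replicate 3. LN521 replicate 1 was above both other LN521 libraries in 316 genes and below both in 76, replicate 3 in 231 and 305, and replicate 2 in 47 and 62. On LN323, another matrix of the series, replicate 2 was also apart, above both other LN323 libraries in 506 genes and below both in 549. On the log2 scale, LN523 replicate 2 correlated with LN323 replicate 2 at 0.990. With LN523 replicates 1 and 3 it correlated at 0.919 and 0.937. Why replicate 2 was apart on both matrices was not tested. In bulk samples, fewer cells of a type and less RNA per cell cannot be told apart.

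Both groups carried genes of the eye field, the neural retina, and pigment cells. On the TPM scale, which divides by gene length as CPM does not, the mean level of SIX6 was 337 on LN523 and 235 on LN521, and that of LHX2 was 310 and 272. RAX stood at 225 and 179 TPM and PAX6 at 173 and 170.0 TPM. None of these 4 transcription factors of the eye field and neural retina passed the test, and their log2 fold changes ran from -0.021 for PAX6 to 0.40 for SIX6. PMEL, a melanosome protein, was at 994 TPM on LN523 and 1376 TPM on LN521. Photoreceptor precursor genes were low, with CRX at 3.45 and 6.10 TPM, NRL at 1.94 and 1.86 TPM, and RCVRN at 0.193 and 0.151 TPM. The markers of endothelium (PECAM1, CDH5) and endoderm (SOX17, AFP) stayed under 1 TPM in both groups, as did KRT5 and KRT14 of surface ectoderm, whereas TP63 of that lineage was at 15.0 and 23.7 TPM. Mesenchymal COL1A1 was at 129 and 76.1 TPM. POU5F1, a pluripotency factor, averaged 2.48 TPM on LN523 and 37.5 TPM on LN521, where it rested on 1 library, with 1.74, 2.33, and 1.24 CPM on LN523 and 76.2, 1.38, and 1.54 CPM on LN521. Of the POU5F1 transcript, 97.6% matched other sequence, so its counts are uncertain. The sample label calls the cells photoreceptor progenitors, and at day 22 the progenitor genes were far above the photoreceptor genes.

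edgeR's quasi-likelihood test with lane as a block, fitted on all 9 day 22 libraries (those of LN323, the third matrix, included), called 221 of 38609 genes at a Benjamini-Hochberg adjusted p under 0.05, or 0.572%. Of these, 69 (0.179% of the genes tested) were higher on LN523 and 152 (0.394%) were lower. The called genes kept the same sign in all 3 lanes in 152 cases, 54 higher and 98 lower. Over all genes tested, 8.98% were higher and 9.09% lower in all 3 lanes. The called genes were selected by a test on the same lanes, so this agreement follows largely from the selection. These calls rest on the settings of the fit. The fit used the study's low filter, more than 1 count in sum, under which the gene variances were pulled together strongly (median prior degrees of freedom 87.7). With edgeR's own expression filter, filterByExpr, the prior degrees of freedom were 4.58, and 0 of 22945 genes were called, with the lowest adjusted p at 0.956 and 1002 genes at an unadjusted p under 0.05. Of the 221 called genes, 215 were still in that fit, all with the same sign, and 171 had an unadjusted p under 0.05. That fit used the same counts, so these shares are a description. Without lane as a block, 1 gene was called (PFKFB4, adjusted p = 0.0487), and without the LN323 libraries 0 were, with 896 genes at an unadjusted p under 0.05. Leaving out 1 library moved the count from 17 without LN523 replicate 3 and 124 without LN523 replicate 1 to 421 without LN523 replicate 2, 421 without LN521 replicate 1, 511 without LN521 replicate 2, and 502 without LN521 replicate 3. Of the 221 genes, 15 were among the 17 called without LN523 replicate 3, so most calls named below were lost there. The DESeq2 Wald test called 486 genes, 84 of them shared with edgeR. At an unadjusted p under 0.05 stood 1762 genes in the fit reported here, 4.56% of those tested. In simulated data that fit called 77 unchanged genes, beside 57 and 89 of 100 genes changed by 1 and 2 on the log2 scale. Below, "called" refers to that fit, and levels in each library are given beside it.

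Groups of 3 against 3 can also be read without a variance model. LN523 libraries all lay above LN521 libraries in 1251 genes (3.24% of those tested) and all below in 1332 (3.45%). The exact two-sided permutation test of 3 against 3 cannot give a p below 0.10, so this count is a description. The median log2 fold change was -0.02 over all genes. Against this background, the list of 30 glycolysis and hypoxia genes had the most calls of the 40 lists. Its LN523 libraries all lay below the LN521 ones in 17 genes, 17 genes were called lower, and none was called higher. By contrast, the 25 focal adhesion and YAP target genes had 9 with all LN523 libraries above LN521, the 14 gp130 and SOCS genes had 5, and the 26 mesenchymal genes had 3. The lists were chosen with earlier results of these data known, so their ranking is a description.

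Of 30 genes of glycolysis and of the hypoxia response, 17 were called lower on LN523 and 0 higher. The pathway breaks glucose down to pyruvate and lactate, and much of it is under the hypoxia-inducible factors (HIF), which bind DNA at the core sequence ACGTG. In all, 29 of them had a negative log2 fold change, with a median of -0.76. The 17 called genes covered the route from uptake to lactate export, with the glucose transporters SLC2A1 and SLC2A3, the enzymes HK2, GPI, ALDOC, TPI1, PGK1, ENO1, ENO2, PKM, and LDHA, the lactate exporter SLC16A3, the regulators PFKFB3, PFKFB4, and PDK1, and the HIF targets BNIP3 and VEGFA. Their log2 fold changes ran from -1.63 for PFKFB4 to -0.69 for SLC2A1. LN523 libraries all lay below LN521 libraries in 13 of these 17 genes, and 15 were lower in all 3 lanes.

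PFKFB4 (chromosome 3, 48517684 to 48562015 on GRCh38), a kinase and phosphatase that sets the level of fructose-2,6-bisphosphate, was at 38.0, 29.9, and 40.7 CPM on LN523 and 89.0, 153, and 92.2 CPM on LN521 (log2 fold change -1.63, standard error 0.19, adjusted p = 1.07e-08 in edgeR). The groups were well apart, and the gene was the only one called without the lane block. PDK1, which shuts pyruvate out of the mitochondrion, was at 28.1, 22.6, and 35.8 CPM on LN523 and 58.0, 125, and 51.4 CPM on LN521 (log2 fold change -1.35, standard error 0.21, adjusted p = 1.36e-05 in edgeR). BNIP3, a mitophagy receptor on chromosome 10, 131967684 to 131981967, was at 96.7, 28.4, and 122 CPM on LN523 and 160.4, 185, and 179 CPM on LN521 (log2 fold change -1.33, standard error 0.20, adjusted p = 8.64e-06 in edgeR), but 99.9% of its transcript matched other places in the genome, so its counts are uncertain. In both genes, LN523 replicate 2 was the lowest library. ENO1 (enolase, chromosome 1, 8861000 to 8879190), the most abundant of the 17 by counts, was at 1339, 1802, and 1735 CPM on LN523 and 2513, 4749, and 2336 CPM on LN521 (log2 fold change -0.92, standard error 0.17, adjusted p = 0.00037 in edgeR). HK2, the first enzyme of the pathway, was at 58.9, 26.3, and 68.3 CPM on LN523 and 95.4, 103, and 96.9 CPM on LN521 (log2 fold change -1.06, standard error 0.19, adjusted p = 0.000228 in edgeR). LDHA, which makes lactate, was at 412, 437, and 554 CPM on LN523 and 665, 1139, and 803 CPM on LN521 (log2 fold change -0.88, standard error 0.17, adjusted p = 0.00118 in edgeR). The LN521 libraries of HK2 lay close together, while LN521 replicate 2 was well above the others in ENO1.

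SLC16A3, the lactate exporter, was at 53.2, 9.56, and 53.5 CPM on LN523 and 59.7, 96.9, and 83.2 CPM on LN521 (log2 fold change -1.46, standard error 0.25, adjusted p = 0.000141 in edgeR), with the LN523 mean pulled down by replicate 2. ALDOC was at 42.0, 20.4, and 37.5 CPM on LN523 and 65.7, 113, and 59.4 CPM on LN521 (log2 fold change -1.24, standard error 0.21, adjusted p = 7.91e-05 in edgeR). PGK1 was at 479, 441, and 541 CPM on LN523 and 658, 1343, and 697 CPM on LN521, TPI1 at 505, 638, and 571 CPM on LN523 and 911, 1376, and 779 CPM on LN521, and PKM at 743, 1007, and 846 CPM on LN523 and 1219.8, 2076, and 1078 CPM on LN521. No pair of groups overlapped in these 5 genes. The exceptions were VEGFA, the angiogenic factor, at 132, 48.2, and 116 CPM on LN523 and 131, 165, and 167 CPM on LN521, ENO2, a neuronal enolase, at 177, 30.7, and 116 CPM on LN523 and 157, 141, and 166 CPM on LN521, and PFKFB3 and SLC2A1, whose groups also overlapped. In VEGFA and ENO2, LN523 replicate 1 was at or above its LN521 partner of lane 1. Across the 17 genes, LN523 replicate 2 was the lowest LN523 library in 11, and LN521 replicate 2 the highest LN521 library in 13. Without LN523 replicate 2, 10 members of the list were called and its median was -0.51. With LN521 replicate 1 left out, 21 were called and the median was -0.92. Of the transcripts of SLC2A3, LDHA, TPI1, and HK2, 81.7%, 62.2%, 55.5%, and 49% matched other sequence at 95% identity or more, so reads could be split with their copies.

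**Figure D1:**
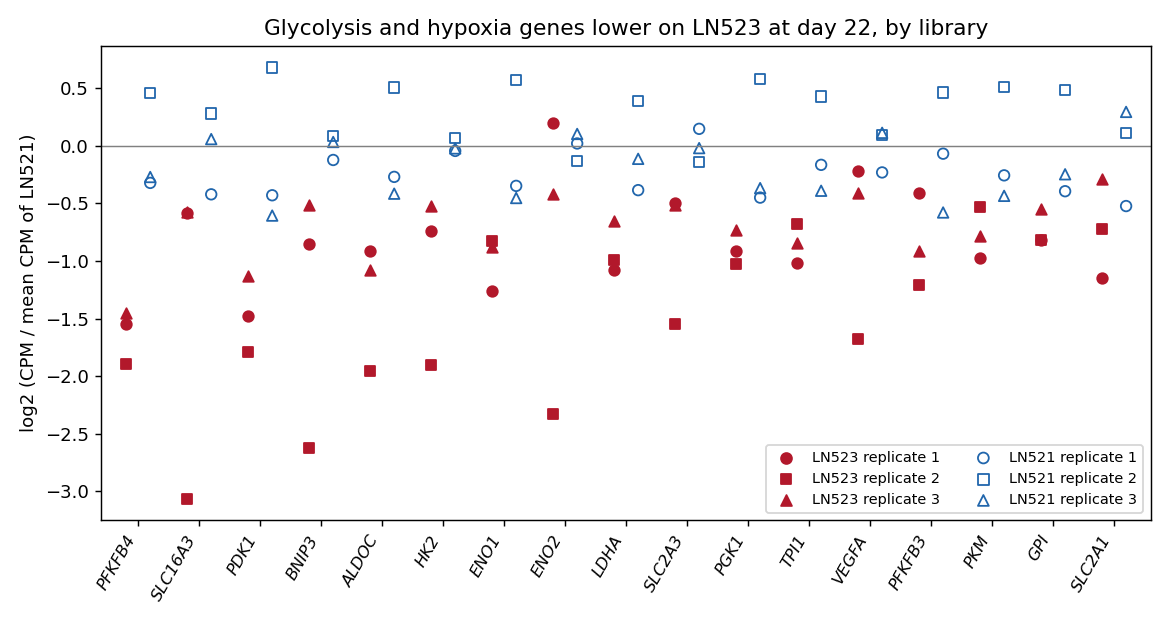
Level of each of the 17 called glycolysis and hypoxia genes in every LN523 (filled) and LN521 (open) library at day 22, as the log2 ratio to the mean CPM of the 3 LN521 libraries. Marker shape gives the replicate number, which is also the lane. Filled markers lie below open ones in 13 genes, and the LN523 squares (replicate 2) are the lowest in 11.

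The promoters of these genes are shown because their members moved together and the HIF core can be read in them. In RefSeq promoter sequence of GRCh38.p14, the letters ACGTG (either strand) occurred in the 250 bases before the transcription start in 7 of the 15 called genes with an entry, or 46.7%. Over all 35116 promoters the share was 18.5%, and over all genes called lower it was 30.7% (31 of 101). A match is a description and not a binding site, and the share in uncalled members of the list was not computed. The 4 promoters below run 5′ to 3′ on the strand of the gene, with ACGTG or its reverse complement CACGT in capitals (where both overlap they read CACGTG). BNIP3 and ALDOC lie on the minus strand and LDHA and PGK1 on the plus strand.
BNIP3 (chr10:131981924-131982173): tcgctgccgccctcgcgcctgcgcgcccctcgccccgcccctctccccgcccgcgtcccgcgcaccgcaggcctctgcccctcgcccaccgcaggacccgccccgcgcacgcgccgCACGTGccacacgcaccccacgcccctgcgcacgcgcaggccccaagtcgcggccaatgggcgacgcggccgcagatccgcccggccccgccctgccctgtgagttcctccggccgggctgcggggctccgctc
LDHA (chr11:18394313-18394562): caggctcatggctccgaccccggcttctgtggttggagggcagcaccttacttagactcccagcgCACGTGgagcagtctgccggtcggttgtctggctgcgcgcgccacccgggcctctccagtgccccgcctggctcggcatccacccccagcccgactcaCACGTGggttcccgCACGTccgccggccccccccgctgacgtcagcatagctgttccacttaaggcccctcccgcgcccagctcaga
PGK1 (chrX:78103998-78104247): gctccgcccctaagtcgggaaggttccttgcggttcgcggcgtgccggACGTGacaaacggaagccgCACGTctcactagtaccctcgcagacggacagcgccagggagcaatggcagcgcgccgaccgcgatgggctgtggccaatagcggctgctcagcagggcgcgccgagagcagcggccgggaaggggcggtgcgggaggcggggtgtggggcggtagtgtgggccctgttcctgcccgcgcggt
ALDOC (chr17:28576896-28577145): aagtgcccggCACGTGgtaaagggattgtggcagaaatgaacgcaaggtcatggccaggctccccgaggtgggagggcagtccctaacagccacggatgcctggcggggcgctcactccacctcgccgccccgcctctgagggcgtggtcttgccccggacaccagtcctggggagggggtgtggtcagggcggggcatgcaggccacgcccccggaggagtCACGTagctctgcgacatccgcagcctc
The match of BNIP3 began 134 bases before its start, and those of LDHA lay between 185 and 73 bases before it. HK2, GPI, and ENO2 were the other genes with a match.

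Other genes known to respond to hypoxia and outside the list were also called lower, and they were picked after their values were seen. They were picked among the falls and not from a full list, and genes of this kind that were higher on LN523 were not counted. PPFIA4 was at 19.9, 5.47, and 17.2 CPM on LN523 and 29.9, 75.2, and 35.9 CPM on LN521, the long noncoding RNA MIR210HG at 7.38, 2.65, and 7.60 CPM on LN523 and 13.9, 26.2, and 13.6 CPM on LN521, and AK4, an adenylate kinase, at 57.9, 18.0, and 67.4 CPM on LN523 and 84.0, 94.9, and 70.0 CPM on LN521. KDM3A, a histone demethylase, was at 65.4, 71.9, and 88.5 CPM on LN523 and 143, 115, and 116 CPM on LN521. The groups did not overlap in these 4 genes. Likewise IGFBP2, which binds insulin-like growth factors, was at 345, 457, and 379 CPM on LN523 and 699.9, 967, and 531 CPM on LN521 (log2 fold change -0.88).

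On the third matrix, LN323, the same genes can be set side by side, with the caution that both comparisons use the same LN521 libraries. On LN323, PFKFB4 was at 45.9, 31.9, and 57.2 CPM (log2 fold change -1.33 against LN521, adjusted p = 1.61e-06 in edgeR). PDK1 was at 43.0, 42.7, and 33.1 CPM (log2 fold change -0.93 against LN521, adjusted p = 0.00523 in edgeR). HK2 did not pass, at 93.1, 50.8, and 74.8 CPM (log2 fold change -0.51 against LN521, adjusted p = 0.394 in edgeR). Neither did ENO1 (adjusted p = 0.0799), LDHA (-0.50, adjusted p = 0.306), or SLC2A1, which at -0.086 was nearest to 0 of the 17 genes. GPI, PGK1, PKM, TPI1, and VEGFA did not pass either. BNIP3 (-0.89), ENO2 (-1.16), ALDOC (-1.06), SLC16A3 (-1.09), SLC2A3 (-0.82), and PFKFB3 (-0.71) passed on LN323 as well. The LN323 mean lay below the LN521 mean in all 17 genes. Some differences outside this list, described below for LN523, also appeared on LN323 against LN521. Passing in edgeR were SOCS3 (log2 fold change 1.51), SRD5A2 (4.04), PDGFRA (1.46), CDH11 (1.07), OTX2 (-1.38), TYRP1 (-1.32), DCT (-1.05), and NEFL (-3.17). FN1 (0.11), TAGLN (0.41), COL1A1 (0.56), CNN1 (0.71), and TYR (-0.73) kept the sign without passing. Whether such differences lie with LN523 or with the shared LN521 libraries was not tested.

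None of the glycolysis genes was called by edgeR at day 2 or day 32, which used other libraries. At day 2, the 30 listed genes had a median log2 fold change of -0.09, and 13 of the 17 genes called at day 22 were lower on LN523. At day 32, the list had a median of 0.14, and 3 of the 17 were lower. HK2 at day 32 was at 94.5, 64.1, and 96.7 CPM on LN523 and 39.7, 45.6, and 80.2 CPM on LN521 (log2 fold change 0.64), and VEGFA was at 291, 190.3, and 146 CPM on LN523 and 104, 87.2, and 127 CPM on LN521 (0.90). The change in the difference from day 22 to day 32 was tested itself by edgeR with lane within day. Its test called 106 of 42336 genes (0.250%, with 5.54% at an unadjusted p under 0.05), among them HK2 (change 1.73, adjusted p = 0.00133), VEGFA (1.74, adjusted p = 0.00133), PFKFB4 (1.90, adjusted p = 0.00307), and ENO1 (1.18, adjusted p = 0.00937). With filterByExpr or without the block, this test called 0 genes.

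**Figure D2:**
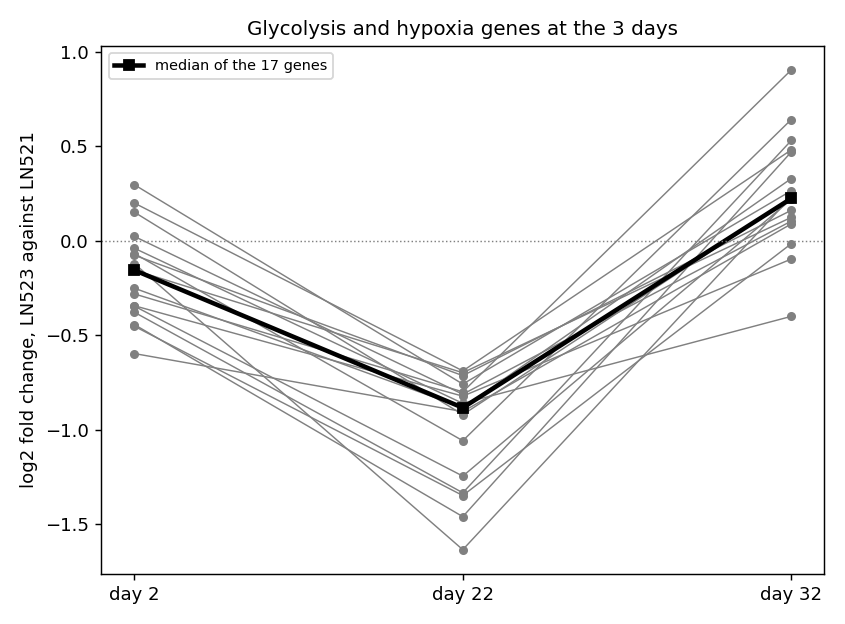
Log2 fold change of LN523 against LN521 at days 2, 22, and 32 for the 17 glycolysis and hypoxia genes called at day 22 (grey lines) and their median (black squares). The genes were chosen at day 22, so the low values there are a description. The median was -0.15 at day 2, -0.88 at day 22, and 0.22 at day 32.

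Of 26 genes of contractile and matrix-producing mesenchymal cells, 5 were called higher on LN523 and 0 lower, and 23 had a positive log2 fold change, with a median of 0.49. ACTA2 (chromosome 10, 88935074 to 88991339), the smooth muscle actin, was at 24.8, 122, and 24.9 CPM on LN523 and 6.20, 16.6, and 13.3 CPM on LN521 (log2 fold change 2.02, standard error 0.26, adjusted p = 5.33e-08 in edgeR). No LN521 library reached the LN523 ones, and LN523 replicate 2 held the highest value. Leaving out that library lowered the log2 fold change to 1.19 (adjusted p = 0.00395). Part of the exons of ACTA2 (36.0%) overlap a gene on the other strand, and the strand setting of the counting is not given in the sources used here. PDGFRA, a receptor of mesenchymal progenitors, was at 63.7, 166, and 59.3 CPM on LN523 and 54.8, 17.2, and 46.1 CPM on LN521 (log2 fold change 1.28, standard error 0.24, adjusted p = 0.00065 in edgeR). The groups did not overlap, though LN523 replicates 1 and 3 lay just above LN521 replicate 1, and without LN523 replicate 2 it did not pass (log2 fold change 0.49, adjusted p = 0.53). TAGLN, which binds actin, was at 273, 89.1, and 132 CPM on LN523 and 51.2, 69.2, and 104 CPM on LN521 (log2 fold change 0.93, standard error 0.21, adjusted p = 0.00658 in edgeR), and its groups overlapped. Its exons overlap other genes on the same strand (38.1%) and the other strand (34.1%). In addition, 66% of its transcript matched other sequence, so its counts are uncertain.

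FN1, fibronectin, was at 4680.4, 1641, and 4996 CPM on LN523 and 1636, 1664, and 2755 CPM on LN521 (log2 fold change 0.73, standard error 0.18, adjusted p = 0.0315 in edgeR), with LN523 replicate 2 as low as the LN521 libraries. COL1A1, fibrillar collagen, was at 458, 257, and 229 CPM on LN523 and 187, 121, and 255 CPM on LN521 (log2 fold change 0.73, standard error 0.18, adjusted p = 0.0208 in edgeR), also with overlap. SPARC, at 2900.4, 2111, and 2539 CPM on LN523 and 1796, 2209, and 3351 CPM on LN521, and VIM, at 1671, 636, and 1679.5 CPM on LN523 and 707, 689, and 2061 CPM on LN521, did not pass. Summed over the 26 genes, the level was 12920.1, 11763, and 13443 CPM on LN523 and 7411, 7357, and 11559.5 CPM on LN521. Without LN523 replicate 2, 3 members were called higher, 2 were called lower, and the median was 0.25. Without LN521 replicate 1, TAGLN (log2 fold change 0.38), FN1 (0.37), and COL1A1 (0.47) no longer passed, while 10 members did.

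Of 25 focal adhesion and YAP target genes, 22 had a positive log2 fold change (median 0.31), and all LN523 libraries exceeded all LN521 libraries in 9 of them, against 3.24% of all genes. Only CNN1, calponin, was called, at 82.5, 34.6, and 46.0 CPM on LN523 and 21.5, 12.5, and 36.4 CPM on LN521 (log2 fold change 1.25, standard error 0.21, adjusted p = 0.000135 in edgeR). Vinculin (VCL, 0.46 on the log2 scale, with adjusted p = 0.383 in edgeR) and the myosin heavy chain MYH9 (0.31, with adjusted p = 1) were 2 of these 9, both named after their values were seen. Outside the lists and likewise chosen after, caldesmon (CALD1) was at 491, 416, and 497 CPM on LN523 and 210.2, 249.8, and 329 CPM on LN521 and palladin (PALLD) at 369, 253, and 466 CPM on LN523 and 152, 193, and 308 CPM on LN521. MYOCD, a cofactor of smooth muscle genes, was at 15.6, 167, and 35.6 CPM on LN523 and 2.43, 15.0, and 47.3 CPM on LN521 (log2 fold change 1.81), and LN523 replicate 2 held by far the highest value. IGFBP3 was at 131, 289, and 132 CPM on LN523 and 64.6, 59.0, and 96.1 CPM on LN521 (log2 fold change 1.22) with no overlap.

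**Figure D3:**
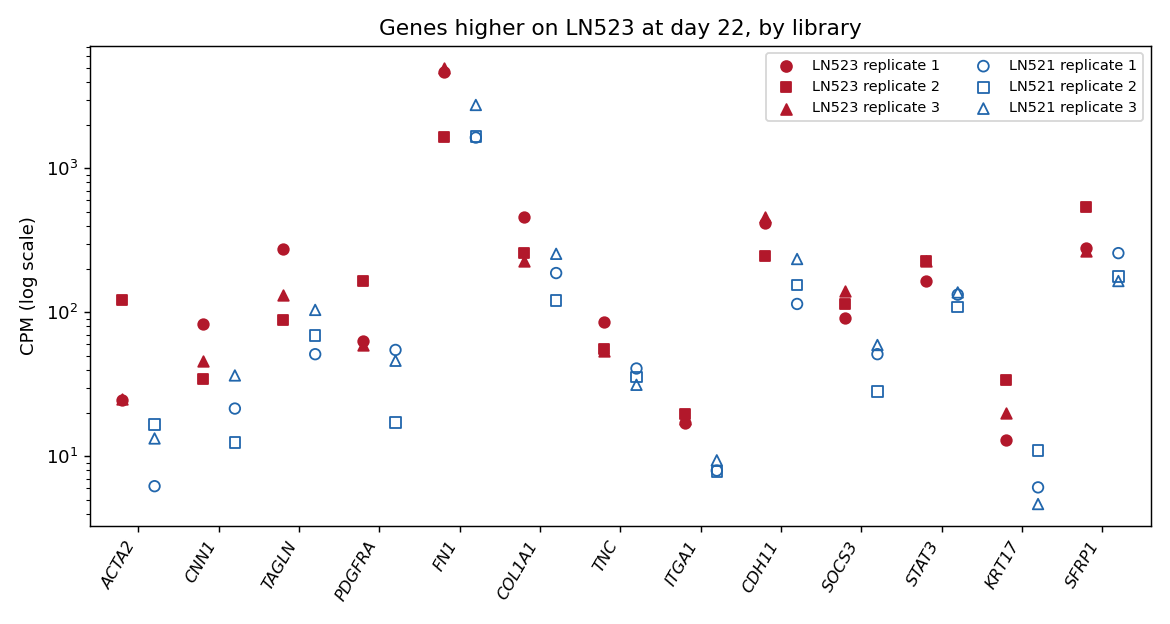
CPM (log axis) of 13 genes called higher on LN523 in each LN523 (filled) and LN521 (open) library at day 22, with marker shape for the replicate number. The groups were apart in ACTA2, PDGFRA, TNC, ITGA1, CDH11, SOCS3, STAT3, KRT17, and SFRP1 and overlapped in CNN1, TAGLN, FN1, and COL1A1.

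SOCS3 and STAT3 of the gp130 pathway were called higher on LN523. CNTF, a component of the medium in both groups, acts through the gp130 receptor to activate STAT3, which induces its own inhibitor SOCS3. SOCS3 (chromosome 17, 78356778 to 78360077) was at 90.9, 115, and 142 CPM on LN523 and 51.2, 28.3, and 59.3 CPM on LN521 (log2 fold change 1.39, standard error 0.18, adjusted p = 7.82e-08 in edgeR). STAT3 was at 166, 226, and 229 CPM on LN523 and 133, 109, and 137 CPM on LN521 (log2 fold change 0.72, standard error 0.17, adjusted p = 0.0136 in edgeR). In both genes every LN523 library exceeded every LN521 library, and without LN523 replicate 2 STAT3 did not pass (0.51, adjusted p = 0.429). The gp130 chain itself, IL6ST, had a log2 fold change of 0.60 without passing (adjusted p = 0.0888), and the groups did not overlap. The CNTF receptor CNTFR was at 83.8, 33.6, and 88.8 CPM on LN523 and 91.1, 61.2, and 79.8 CPM on LN521 (log2 fold change -0.29, adjusted p = 1). Of the 14 listed genes, 2 were called and 11 were higher, with a median of 0.48. SOCS3 was also higher at day 2 (log2 fold change 0.96, adjusted p = 0.00581) and at day 32 (1.23, adjusted p = 0.0221). At day 22 SOCS3 stayed past the threshold with each replicate left out, with a log2 fold change of 1.07 to 1.65.

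Among receptors for the matrix, ITGA1, the alpha chain of a collagen and laminin receptor, was at 16.9, 19.7, and 18.3 CPM on LN523 and 7.96, 7.87, and 9.38 CPM on LN521 (log2 fold change 1.13, standard error 0.26, adjusted p = 0.0126 in edgeR). Its LN523 libraries did not overlap those of LN521, and without LN523 replicate 2 it did not pass (0.97, adjusted p = 0.119). ITGA8, which binds fibronectin and other ligands, was called at 2.22, 32.1, and 1.36 CPM on LN523 and 3.70, 0.591, and 0.171 CPM on LN521 (log2 fold change 2.34, standard error 0.57, adjusted p = 0.0196 in edgeR), a value that rested on LN523 replicate 2. Without that library its log2 fold change was 0.90 (adjusted p = 1), and without LN521 replicate 1 it was 4.67. The common beta chain ITGB1 was at 600.2, 565, and 577 CPM on LN523 and 487, 444, and 513 CPM on LN521, and its groups did not overlap although the difference did not pass (log2 fold change 0.27, adjusted p = 1). ITGAV, a receptor chain for vitronectin and fibronectin, did not pass either (0.60, adjusted p = 0.0852). TNC, tenascin, was called at 86.3, 55.9, and 54.0 CPM on LN523 and 40.7, 35.6, and 31.4 CPM on LN521 (log2 fold change 0.84, standard error 0.18, adjusted p = 0.00658 in edgeR), and COL9A3, a cartilage and eye collagen, at 119.6, 43.4, and 140.2 CPM on LN523 and 44.7, 26.8, and 96.4 CPM on LN521 (log2 fold change 0.87, standard error 0.18, adjusted p = 0.00222 in edgeR). These were the only calls among 31 collagen and basement membrane genes, of which COL2A1 and FBN2 had the highest CPM. Among cadherins, CDH11 was at 415, 247, and 462 CPM on LN523 and 114, 154, and 235 CPM on LN521 (log2 fold change 1.21, standard error 0.18, adjusted p = 8.18e-06 in edgeR), CDH6 was called higher with overlapping groups (log2 fold change 1.04), and PCDH8 was called lower (-1.89).

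No gene for a laminin chain was called by edgeR, with 1 of 12 at an unadjusted p under 0.05. LAMC3, the gamma chain of LN523, was at 4.15, 2.84, and 8.22 CPM on LN523 and 5.64, 13.1, and 4.26 CPM on LN521 (log2 fold change -0.65, adjusted p = 1), and LAMC1, the gamma chain of LN521, at 465, 519, and 429 CPM on LN523 and 432, 401, and 427 CPM on LN521 (0.17, adjusted p = 1). The shared chains LAMA5 and LAMB2 had log2 fold changes of 0.054 and 0.25. LAMA1 (-0.047), LAMA2 (0.15), LAMA3 (0.18), LAMA4 (0.11), LAMB1 (0.062), LAMB3 (0.35), and LAMB4 (-0.83) did not pass either.

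Of 28 pigment genes, 5 were called lower on LN523 and 0 higher. Tyrosinase (TYR), TYRP1, and DCT make melanin in the pigment epithelium, and OTX2 and MITF are transcription factors of that tissue. In all, 23 had a negative log2 fold change (median -0.39). TYRP1 was at 92.1, 55.3, and 39.6 CPM on LN523 and 138, 66.3, and 437 CPM on LN521 (log2 fold change -1.63, standard error 0.28, adjusted p = 0.000118 in edgeR). It was lower in each lane, but LN523 replicate 1 exceeded LN521 replicate 2. DCT was at 94.8, 300.3, and 145 CPM on LN523 and 562, 281, and 284 CPM on LN521 (log2 fold change -1.06, standard error 0.21, adjusted p = 0.00146 in edgeR), with LN523 replicate 2 above its LN521 partner. TYR was at 3.47, 2.31, and 3.84 CPM on LN523 and 10.4, 3.84, and 12.6 CPM on LN521 (log2 fold change -1.37, standard error 0.36, adjusted p = 0.0456 in edgeR). OTX2, which also serves photoreceptor precursors, was at 44.4, 6.55, and 17.2 CPM on LN523 and 55.8, 34.3, and 36.3 CPM on LN521 (log2 fold change -1.24, standard error 0.23, adjusted p = 0.000708 in edgeR). TTR, transthyretin, had 0 counts in every LN523 library and was at 0.187, 0.984, and 0.455 CPM on LN521. MITF (49.6, 56.2, and 69.9 CPM on LN523 and 41.2, 56.7, and 92.0 CPM on LN521) and PMEL (1132, 933, and 825 CPM on LN523 and 996, 1394, and 1682 CPM on LN521) did not pass. TYRP1 was called lower at day 32 too (log2 fold change -2.49, adjusted p = 0.0221) but not at day 2 (-1.16, adjusted p = 0.917). The log2 fold change of OTX2 was 0.19 at day 2 and 0.22 at day 32. The calls of the list depended on single libraries. Leaving out LN523 replicates 1, 2, and 3 gave 2, 7, and 0 called lower, and leaving out LN521 replicates 1, 2, and 3 gave 7, 6, and 3. TYRP1 ran from -2.27 to -0.37 on the log2 scale and lost its call without LN521 replicate 3, its highest library (adjusted p = 0.965), and without LN523 replicate 3 (adjusted p = 1).

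MITF and its relatives bind the E-box CATGTG. Among called pigment genes with a RefSeq entry, 3 of 4 (75.0%) held these letters or their reverse complement within 250 bases before the start. Over all promoters the share was 9.42%. The share in uncalled members of the list was not computed, so this is a description of 4 genes. The promoters of both enzymes, on the plus strand of GRCh38.p14, are printed with CATGTG or its reverse complement CACATG in capitals.
TYR (chr11:89177625-89177874): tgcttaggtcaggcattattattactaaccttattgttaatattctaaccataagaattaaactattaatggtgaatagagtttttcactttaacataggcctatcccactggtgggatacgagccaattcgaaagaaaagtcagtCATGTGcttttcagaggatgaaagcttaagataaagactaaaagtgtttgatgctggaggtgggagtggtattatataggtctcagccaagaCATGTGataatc
TYRP1 (chr9:12693135-12693384): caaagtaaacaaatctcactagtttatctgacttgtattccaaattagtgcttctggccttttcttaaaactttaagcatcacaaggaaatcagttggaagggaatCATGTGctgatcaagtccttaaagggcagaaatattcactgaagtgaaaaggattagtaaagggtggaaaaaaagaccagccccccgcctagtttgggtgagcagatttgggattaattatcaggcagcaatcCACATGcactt
In TYR the matches began 104 and 12 bases before the start, and in TYRP1 144 and 11. OTX2 was the third gene with a match.

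Some neuronal, hindbrain, and pluripotency genes were called lower on LN523. LN521 replicate 1 had the highest summed level of the 6 libraries in the neuron, proneural, and pluripotency lists. Summed over 30 ganglion cell and early neuron genes, the level was 141, 274, and 147 CPM on LN523 and 1423, 271, and 132 CPM on LN521. NEFL, the neurofilament light chain, was at 2.39, 9.32, and 1.39 CPM on LN523 and 257, 43.9, and 3.07 CPM on LN521 (log2 fold change -3.99, standard error 0.47, adjusted p = 1.07e-08 in edgeR), and NEFM at 1.33, 3.73, and 0.355 CPM on LN523 and 140.1, 22.8, and 1.39 CPM on LN521 (log2 fold change -4.38, standard error 0.53, adjusted p = 1.47e-08 in edgeR). LN521 replicates 1 and 2 exceeded all LN523 libraries in both genes, and replicate 3 fell among them. STMN2, a growth cone protein, was at 8.59, 15.8, and 7.30 CPM on LN523 and 186, 10.1, and 7.85 CPM on LN521 (log2 fold change -1.76, standard error 0.42, adjusted p = 0.0176 in edgeR), and DCX, of migrating neurons, at 3.09, 28.6, and 12.9 CPM on LN523 and 149.9, 17.7, and 14.7 CPM on LN521 (log2 fold change -1.92, standard error 0.46, adjusted p = 0.0167 in edgeR). In these, LN521 replicate 1 alone was apart. ELAVL4 (log2 fold change -3.48) and SNCG (-1.90) were called lower as well. Without that library, NEFL (-1.69, adjusted p = 4.65e-05) and NEFM (-1.88, adjusted p = 0.00233) still passed, ELAVL4 (-0.46) and SNCG (-0.26) did not, and STMN2 (0.32) and DCX (0.057) turned positive. The median of the list moved from -1.38 to 0.04.

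In the same list, 2 genes were called higher. ATOH7, the bHLH factor that makes progenitors competent for the ganglion cell fate, was at 1.16, 11.0, and 3.13 CPM on LN523 and 0.515, 1.18, and 1.42 CPM on LN521 (log2 fold change 1.87, standard error 0.40, adjusted p = 0.0044 in edgeR). It was higher in each lane, although LN523 replicate 1 lay below LN521 replicates 2 and 3. PRPH, peripherin, was at 6.49, 9.39, and 13.8 CPM on LN523 and 3.93, 1.48, and 6.08 CPM on LN521 (log2 fold change 1.64, standard error 0.33, adjusted p = 0.00174 in edgeR) with no overlap, and 71.5% of its exons are shared with the other strand. When LN521 replicate 1 was left out, their log2 fold changes were 2.37 and 1.59, and without LN523 replicate 2 neither passed (1.40 and 0.89). The ganglion cell factors POU4F2 (0, 0.736, and 0.532 CPM on LN523 and 0.679, 0.443, and 0 CPM on LN521) and ISL1 (0.434, 1.13, and 0.946 CPM on LN523 and 1.52, 4.28, and 0.682 CPM on LN521) were low and did not pass.

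**Figure D4:**
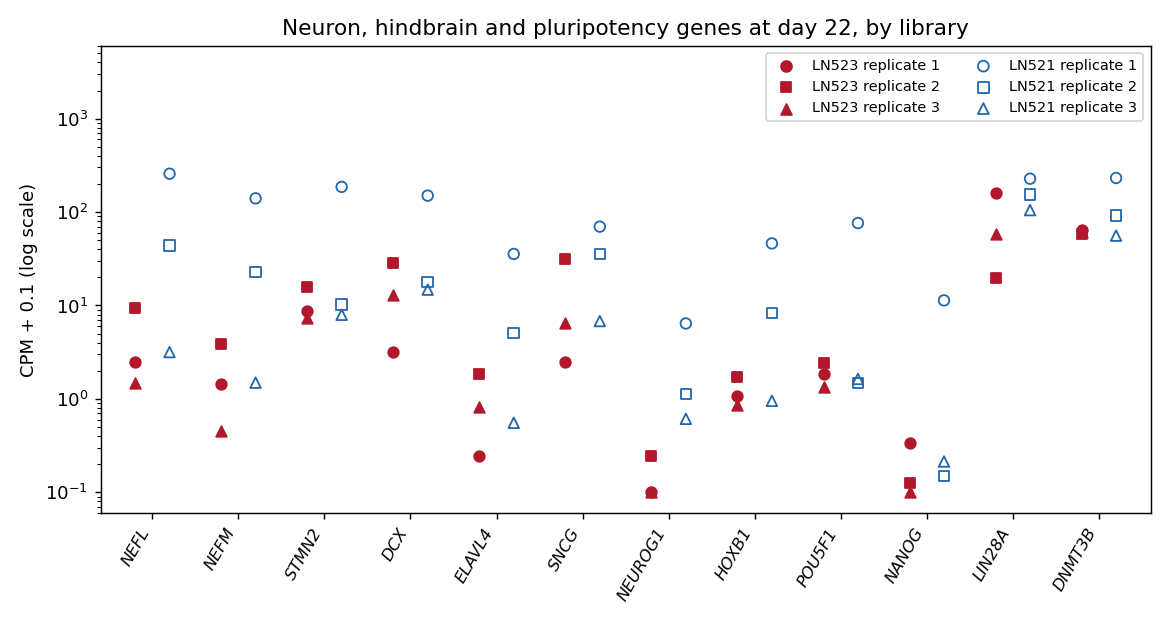
CPM plus 0.1 (log axis) of 12 neuron, hindbrain, and pluripotency genes in each LN523 (filled) and LN521 (open) library at day 22, with marker shape for the replicate number. The open circle, LN521 replicate 1, is the highest of the 6 libraries in every gene drawn. All but POU5F1 were called lower on LN523.

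Among 14 proneural factors the median was -1.49, 3 were called lower, and ATOH7 was called higher. NEUROG1 was at 0, 0.147, and 0 CPM on LN523 and 6.32, 1.03, and 0.512 CPM on LN521 (log2 fold change -5.18, standard error 0.89, adjusted p = 0.00013 in edgeR) and HES6 at 13.8, 23.1, and 8.51 CPM on LN523 and 56.0, 38.6, and 10.0 CPM on LN521 (log2 fold change -1.20, standard error 0.29, adjusted p = 0.0212 in edgeR). Neither passed when LN521 replicate 1 was left out, with NEUROG1 at -3.66 and HES6 at -0.17, and the median of the list was then 0.15. HOXB1, a patterning gene of the hindbrain, was at 0.965, 1.62, and 0.768 CPM on LN523 and 46.1, 8.17, and 0.853 CPM on LN521 (log2 fold change -3.51, standard error 0.58, adjusted p = 5.77e-05 in edgeR). Its call was lost without that library (-0.98, adjusted p = 0.838). Summed over the 27 listed HOX genes, the level was 16.7, 389, and 27.1 CPM on LN523 and 350, 120, and 25.1 CPM on LN521. The highest of these sums was that of LN523 replicate 2. LBX1 and HAGLR, chosen after their values were seen, were at 0 on LN523. On LN521, LBX1 was at 8.85, 0.64, and 0 CPM and HAGLR at 8.68, 0.763, and 0 CPM, so both levels rested on replicate 1. DBX1, also chosen after its values were seen, was at 0, 0.049, and 0 CPM on LN523 and 8.80, 1.30, and 0 CPM on LN521. GSX2 of the ventral forebrain (0.531, 0.196, and 0 CPM on LN523 and 8.73, 0.738, and 0.114 CPM on LN521) and PAX3 of the dorsal neural tube and crest (2.51, 0.883, and 0.473 CPM on LN523 and 13.9, 1.60, and 1.93 CPM on LN521) were called lower, and neither passed without LN521 replicate 1. The same was true of the neuronal genes CPLX2, SLIT1, ROBO3, SEZ6L, ST18, CHGA, and MIR124-1HG.

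Of 20 pluripotency genes, 18 were lower on LN523 (median -1.11), and 3 were called lower. NANOG was at 0.241, 0.0245, and 0 CPM on LN523 and 11.2, 0.0492, and 0.114 CPM on LN521 (log2 fold change -4.50, standard error 0.89, adjusted p = 0.00146 in edgeR), DNMT3B at 63.7, 58.3, and 60.7 CPM on LN523 and 231, 91.6, and 55.8 CPM on LN521 (log2 fold change -0.90, standard error 0.21, adjusted p = 0.0141 in edgeR), and LIN28A at 160.4, 19.7, and 58.3 CPM on LN523 and 227, 155, and 105 CPM on LN521 (log2 fold change -1.31, standard error 0.23, adjusted p = 0.000141 in edgeR). LEFTY2, a Nodal inhibitor, was called higher at 13.4, 10.2, and 78.1 CPM on LN523 and 2.86, 11.2, and 12.1 CPM on LN521 (log2 fold change 1.64, standard error 0.28, adjusted p = 8.1e-05 in edgeR), and LN523 replicate 3 carried that value. Of the LEFTY2 transcript, 61.4% matched other sequence. Without LN521 replicate 1, LIN28A still passed (-1.48, adjusted p = 6.41e-11, and without LN523 replicate 2 it stood at adjusted p = 0.0502), whereas NANOG (-1.95) and DNMT3B (-0.17) did not, and the median was 0.12.

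Among 30 factors of the eye field and neural retina the median was 0.00. ALDH1A1, a retinoic acid synthase of the dorsal retina, was called higher at 1779, 2948, and 3782 CPM on LN523 and 280.3, 1160.1, and 4318 CPM on LN521 (log2 fold change 1.01, standard error 0.25, adjusted p = 0.0203 in edgeR), and so was TBX5, a dorsal retina factor, at 55.9, 52.7, and 67.7 CPM on LN523 and 3.91, 14.7, and 114 CPM on LN521 (log2 fold change 1.25, standard error 0.31, adjusted p = 0.0234 in edgeR). LN521 replicate 1 was the lowest library and replicate 3 the highest in both, and without replicate 1 neither passed (0.35 and 0.36). NR2F1, a nuclear receptor of the ventral optic cup and stalk, was called lower at 86.8, 151, and 102 CPM on LN523 and 271, 199, and 166 CPM on LN521 (log2 fold change -0.92, standard error 0.18, adjusted p = 0.000753 in edgeR). It was without overlap, and without LN521 replicate 1 it still passed (-0.59, adjusted p = 0.0395). Of 29 photoreceptor genes, OTX2 was the only one called (median 0.00). CRX was at 8.16, 2.40, and 4.97 CPM on LN523 and 14.5, 4.53, and 8.30 CPM on LN521, lower in 3 of 3 lanes without passing (log2 fold change -0.83, adjusted p = 0.655).

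Signaling genes gave single calls. In the WNT list of 45, the secreted antagonists SFRP1 (279, 535, and 266 CPM on LN523 and 258, 177, and 165 CPM on LN521, log2 fold change 0.76, standard error 0.18, adjusted p = 0.0174 in edgeR) and DKK1 (221, 22.7, and 386 CPM on LN523 and 10.8, 30.6, and 172 CPM on LN521, log2 fold change 1.22, standard error 0.30, adjusted p = 0.0203 in edgeR) were called higher. SFRP1 groups did not overlap, whereas DKK1 ranged widely in both and did not pass without LN521 replicate 1 (0.35). The same holds for TGFB2 and ID4 of the next list and for DLL3. In the BMP and TGF-beta list of 32, TGFB2 (log2 fold change 0.70) and ID4 (0.82) were called higher. In the Notch list of 22, DTX4 was higher (0.68) and the ligand DLL3 lower (-1.35). BMP3, a BMP family member outside that list, was at 0.676, 3.19, and 0.591 CPM on LN523 and 0.0936, 0.689, and 0.0569 CPM on LN521 (log2 fold change 2.59, standard error 0.65, adjusted p = 0.0313 in edgeR). EPHA4, an ephrin receptor, was higher (0.75). Of 36 neuropeptide genes, the receptors NTSR1 (3.62, 2.45, and 7.33 CPM on LN523 and 1.12, 0.64, and 2.33 CPM on LN521) and EDNRA (27.3, 92.1, and 37.1 CPM on LN523 and 22.3, 13.7, and 33.5 CPM on LN521) were called higher. No member of the hedgehog list (16 genes, 15 lower, median -0.33) or of the FGF and ERK list (28 genes, median 0.11) was called by edgeR, with 2 and 9 members at an unadjusted p under 0.05.

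In the surface ectoderm list of 38, KRT17 was called higher at 13.1, 33.7, and 19.9 CPM on LN523 and 6.09, 11.0, and 4.66 CPM on LN521 (log2 fold change 1.61, standard error 0.27, adjusted p = 6.44e-05 in edgeR) and TFAP2B lower at 7.34, 61.9, and 9.28 CPM on LN523 and 87.7, 48.0, and 17.1 CPM on LN521 (log2 fold change -1.50, standard error 0.31, adjusted p = 0.00232 in edgeR). KRT17 groups did not overlap, but 85.6% of its transcript matched other sequence. KRT8 (631, 1069, and 645 CPM on LN523 and 601, 761, and 879.7 CPM on LN521) and KRT19 (377, 641, and 283 CPM on LN523 and 381, 511, and 429 CPM on LN521), the listed keratins with the highest CPM, did not pass. The mucin MUC15 (log2 fold change -1.36) and the claudin CLDN5 (-2.88) were called lower, as was FOXA2 of endoderm and floor plate, at 0, 0.932, and 0 CPM on LN523 and 2.48, 6.45, and 0 CPM on LN521. Of these, TFAP2B, MUC15, CLDN5, and FOXA2 lost the call without LN521 replicate 1. The lens list of 21 had a positive median (0.87) with 0 called by edgeR and 6 at an unadjusted p under 0.05, and its most abundant genes were CRYAB (50.9, 21.0, and 30.6 CPM on LN523 and 2.72, 6.89, and 157 CPM on LN521) and MAF.

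SRD5A2, a steroid 5-alpha reductase, was called higher at 3.57, 34.5, and 72.9 CPM on LN523 and 0.281, 5.66, and 19.1 CPM on LN521 (log2 fold change 2.36, standard error 0.30, adjusted p = 3.99e-08 in edgeR). Within each lane it was higher on LN523, but the libraries of different lanes overlapped. It was also higher at day 32 (log2 fold change 2.97, adjusted p = 0.00294). GPX3, a secreted glutathione peroxidase, had the same lane pattern at 287, 71.7, and 586 CPM on LN523 and 20.7, 55.5, and 259 CPM on LN521 (log2 fold change 1.54, standard error 0.25, adjusted p = 2.93e-05 in edgeR). MGP, a matrix protein that inhibits calcification, was at 0.0483, 12.6, and 0.236 CPM on LN523 and 0, 0.246, and 0 CPM on LN521 (log2 fold change 5.13, standard error 0.80, adjusted p = 1.51e-05 in edgeR), and without LN523 replicate 2 it did not pass (2.78, adjusted p = 0.472). The long noncoding RNA ARNILA (1.21, 1.94, and 1.27 CPM on LN523 and 0.14, 0.541, and 0.0853 CPM on LN521), TENM1 (4.63, 7.16, and 5.56 CPM on LN523 and 2.72, 1.45, and 2.22 CPM on LN521), and GBP2 (12.4, 11.8, and 11.3 CPM on LN523 and 4.28, 6.15, and 3.81 CPM on LN521) were low but without overlap. KCTD16 (log2 fold change 1.48) and STEAP2 (1.41) were called higher as well. Among falls, LINC01933, LINC02500, EGFLAM, and GLP1R had no overlap, with LINC01933 at 0.193, 0.147, and 0.0591 CPM on LN523 and 5.85, 1.62, and 0.625 CPM on LN521, and none of the 4 passed without LN521 replicate 1. In lipid and stress lists, SCD, a fatty acid desaturase, was lower at 558, 1031, and 468 CPM on LN523 and 1152, 1339.8, and 702 CPM on LN521 (log2 fold change -0.68, standard error 0.17, adjusted p = 0.0208 in edgeR), and DDIT4, an mTOR inhibitor induced by hypoxia, at 59.7, 36.5, and 68.2 CPM on LN523 and 104, 272, and 48.6 CPM on LN521 (log2 fold change -1.19, standard error 0.24, adjusted p = 0.00242 in edgeR). The DDIT4 groups overlapped, and in lane 3 LN523 was the higher. Its call was lost without LN523 replicate 2 (-0.58, adjusted p = 0.339) and without LN521 replicate 2 (-0.33, adjusted p = 1).

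Of 30 cell cycle genes, 26 were lower on LN523 (median -0.24) with 0 called by edgeR and 5 at an unadjusted p under 0.05. Histone genes with symbols of the H1, H2AC, H2BC, H3C, and H4C series were counted after their values were seen. Of 83 tested, 19 were called lower and none higher, against 0.394% and 0.179% of all genes tested. Their summed level was 5256, 10591, and 10061 CPM on LN523 and 12198, 13261, and 10109.5 CPM on LN521, so the low value was that of LN523 replicate 1. On LN323 the sum was 6680, 12206, and 11146 CPM, also lowest in replicate 1. Of the called ones, H3C13, H3C4, and H2BC26 matched other sequence over 99.8%, 96.8%, and 79.4% of their transcript, so their counts are uncertain. The interferon (23 genes), immediate early (22), and glial (15) lists had 0 called by edgeR and 6, 2, and 1 members at an unadjusted p under 0.05, with medians of 0.31, 0.02, and 0.04.

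Called genes differed in how they stood at the other days. Of the 69 genes higher at day 22, 55 (79.7%) were also higher at day 32, with a median log2 fold change of 0.63. Of the 151 lower genes with a value, 75 (49.7%) were lower at day 32, with a median of 0.02. Over all genes, 47.0% had the same sign at day 22 and day 32. At day 2, 46 of 69 and 86 of 150 had the same sign, against 54.0% of all genes. The test called 24 genes at day 32 (0.0609%), with 19 higher (0.0483%) and 5 lower (0.0127%), and 5.17% of genes had an unadjusted p under 0.05. It called 241 at day 2 (0.624%), with 62 higher (0.160%) and 179 lower (0.463%), and 8.07% had an unadjusted p under 0.05. Genes called at day 22 and at day 32 in the same direction numbered 8 higher and 3 lower. Among the former were LRP1B, SRD5A2, PRPH, CDH11, SOCS3, NTSR1, and COL9A3, and the latter were TYRP1, MUC15, and LBX1. COL1A1 was called lower at day 2 (log2 fold change -0.79, adjusted p = 0.00702) and higher at day 22.

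Against day 2, the difference changed in 285 of 42785 genes (0.666%, with 5.61% at an unadjusted p under 0.05), 65 without the block and 1 with filterByExpr. COL1A1 (change 1.52), FN1 (1.06), CNN1 (1.27), and TGFB2 (1.71) gained on LN523, and ENO1 (-1.08), PFKFB4 (-1.51), OTX2 (-1.43), and NEFL (-3.75) lost. With each of the 6 libraries left out in turn, 10 of the 221 genes were called throughout, among them ACTA2, SOCS3, CNN1, and IGFBP3 on the higher side and PFKFB4, PDK1, BNIP3, HK2, and ENO1 on the lower side.

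Most calls named above ended without LN523 replicate 3, and calls of named genes that ended without another library were these. Leaving out LN523 replicate 1 ended those of ALDH1A1, ARNILA, BMP3, CDH6, CHGA, CLDN5, COL1A1, COL9A3, CPLX2, DCT, DCX, DKK1, DLL3, DNMT3B, DTX4, EGFLAM, ELAVL4, EPHA4, FN1, FOXA2, GBP2, GPI, GSX2, HES6, HOXB1, ID4, LDHA, LINC02500, MIR124-1HG, MUC15, NANOG, NR2F1, NTSR1, PAX3, PCDH8, PKM, ROBO3, SCD, SEZ6L, SLC2A1, SLIT1, SNCG, ST18, STMN2, TAGLN, TBX5, TFAP2B, TGFB2, TNC, TTR, and TYR. For LN523 replicate 2 they were ATOH7, BMP3, COL1A1, DDIT4, EDNRA, EGFLAM, ENO2, GBP2, GPI, ITGA1, ITGA8, LIN28A, MGP, OTX2, PDGFRA, PFKFB3, PGK1, PKM, PRPH, SFRP1, SLC2A3, STAT3, STEAP2, TENM1, TGFB2, and VEGFA. For LN521 replicate 1 they were ALDH1A1, CHGA, CLDN5, COL1A1, CPLX2, DCX, DKK1, DLL3, DNMT3B, EGFLAM, ELAVL4, FN1, FOXA2, GBP2, GLP1R, GSX2, HES6, HOXB1, ID4, LINC01933, LINC02500, MIR124-1HG, MUC15, NANOG, NEUROG1, PAX3, PCDH8, ROBO3, SCD, SEZ6L, SLIT1, SNCG, ST18, STMN2, TAGLN, TBX5, TFAP2B, and TGFB2. For LN521 replicate 2 they were ATOH7, COL1A1, DDIT4, DTX4, EDNRA, ENO2, FOXA2, GPI, ITGA8, LINC02500, NTSR1, PDGFRA, PFKFB3, PGK1, PKM, SFRP1, SLC16A3, SLC2A1, TBX5, TENM1, TTR, and VEGFA. For LN521 replicate 3 they were ARNILA, BMP3, DTX4, EGFLAM, FN1, GBP2, ITGA8, PAX3, SFRP1, SLC2A1, STAT3, STEAP2, TNC, TTR, TYR, and TYRP1.

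Other named genes stayed called with a fold change more than 1.5 times smaller, given here on the log2 scale. With LN521 replicate 1 left out these were GPX3 0.82, NEFL -1.69, and NEFM -1.88. With LN523 replicate 1 left out these were NEFL -2.73, NEFM -3.26, and NEUROG1 -3.88. With LN523 replicate 2 left out these were ACTA2 1.19 and SLC16A3 -0.81.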

How the data were processed

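RNA was sequenced as ribosomal RNA depleted, stranded 150 bp pairs. The authors aligned reads to GRCh38 with STAR 2.5.2b, counted them per Ensembl gene with featureCounts 1.5.1, and removed ribosomal and mitochondrial genes, and the submitters' processing notes also name cutadapt. The strand setting of the counting is not given in the sources used here. The deposited counts are whole numbers per gene and library, not normalized. The deposited TPM values, which the authors scaled by gene length and library, were used only to compare levels between genes.

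Counts of the 9 day 22 libraries were scaled by TMM and fitted with edgeR 4.0.16 (quasi-likelihood test, lane as a block, genes with more than 1 count in sum), in R 4.3.3, with Benjamini-Hochberg adjustment and a threshold of 0.05. Libraries were grouped by the matrix and day in their labels. The block follows the design of the study. Same-lane deviations of LN523 and LN521 correlated at -0.17, 0.33, and 0.42 over 16032 genes, so lane 1 did not pair them. Deviations of different lanes of these groups correlated at -0.49 to 0.37, so pairing by lanes 2 and 3 is uncertain too. For LN523 and LN323 the same-lane values were 0.56, 0.82, and 0.49, and those of different lanes ran from -0.68 to 0.42. For LN521 and LN323 the same-lane values were -0.26, 0.43, and 0.23, and those of different lanes ran from -0.58 to 0.56. DESeq2 1.42.0, other filters, fits without the block, and fits without each library were alternatives. Scripts were tested on simulated data with 100 genes changed by 1 and 100 by 2 on the log2 scale. The day 22 edgeR fit recovered 57 and 89 of them and called 77 of 38409 unchanged genes. DESeq2 recovered 51 and 84 and called 250 unchanged genes. The test of change between days 22 and 32 recovered 8 and 74 and called 84. That between days 2 and 22 recovered 4 and 67 and called 44. False calls thus made up a larger share than the threshold of 0.05. Named genes were the called rises and falls with the largest fold change (15 each way, mean of at least 1 CPM, same sign in all 3 lanes), called members of the gene lists, identity markers, laminin chains, and the 2 members of each list with the highest level. The gene lists and the comparison were chosen with earlier results of these data known. RefSeq promoters are those of GRCh38.p14. GNAT2, NEUROD6, NKX2-2, OTP, SOX10, HBG1, CPLX3, and XBP1 of the lists were not analysed here, and results for a few other genes are not reported here.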

Additional observations from a re-analysis of the deposited data

Results flagged for a closer look

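The difference between LN523 and LN521 changed between days in some of the named genes, by edgeR's test of the change itself (adjusted p under 0.05 over all genes, lane within day as a block). The values are changes of the log2 fold change. From day 22 to day 32, it rose in NEFM (3.72), SEZ6L (4.71), NEFL (3.49), ST18 (4.24), MIR124-1HG (4.44), CPLX2 (3.53), ENO1 (1.18), ELAVL4 (4.01), HK2 (1.73), PDK1 (1.37), HES6 (2.18), PFKFB4 (1.90), VEGFA (1.74), LDHA (1.25), DDIT4 (1.91), SLIT1 (2.52), SCD (0.97), BNIP3 (1.90), OTX2 (1.49), ALDOC (1.498), and SLC16A3 (1.96). Over the same interval it fell in BMP3 (-3.72), KRT17 (-2.75), and GBP2 (-2.12). None of these passed with filterByExpr or without the block. At day 22, the calls of SEZ6L, ST18, MIR124-1HG, CPLX2, ELAVL4, HES6, SLIT1, SCD, and GBP2 ended without LN521 replicate 1. The day 22 log2 fold change was then -0.46 in ELAVL4 and -0.17 in HES6. NEFL and NEFM kept their calls at -1.69 and -1.88.

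From day 2 to day 22, it rose in MGP (9.10), SRD5A2 (2.13), PRPH (3.10), GPX3 (1.21), TENM1 (2.86), KCTD16 (1.95), STEAP2 (1.93), TGFB2 (1.71), FN1 (1.06), TAGLN (1.10), CDH11 (1.30), COL1A1 (1.52), COL9A3 (1.01), and CNN1 (1.27). It fell in NANOG (-5.57), NEFM (-4.25), SEZ6L (-4.07), NEFL (-3.75), MIR124-1HG (-2.36), CHGA (-3.69), CPLX2 (-3.37), GLP1R (-3.25), GSX2 (-6.87), ENO1 (-1.08), LIN28A (-1.66), SLC2A1 (-0.89), ELAVL4 (-3.32), HK2 (-0.995), HES6 (-1.27), PFKFB4 (-1.51), PFKFB3 (-1.06), DDIT4 (-1.38), SNCG (-2.35), TPI1 (-0.84), DCT (-2.01), OTX2 (-1.43), FOXA2 (-6.13), and DNMT3B (-1.21). With filterByExpr, 1 gene of the whole table passed, and without the block 65 did. The libraries of day 22 enter both tests. Without LN521 replicate 1, day 22 calls of NANOG, SEZ6L, MIR124-1HG, CHGA, CPLX2, GLP1R, GSX2, ELAVL4, HES6, SNCG, FOXA2, and DNMT3B ended. Those of TGFB2, FN1, TAGLN, and COL1A1 did too. Changes between days without that library are not reported for single genes.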

How the results depend on the processing

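The number of genes called at day 22 (221, with 69 higher and 152 lower) depended on the fit. DESeq2 called 486 (204 higher, 282 lower), and RLE scaling 166 (56 higher, 110 lower). With filterByExpr, with at least 10 counts in every library, and with the LN523 and LN521 libraries alone, edgeR called 0 genes, with 1002, 834, and 896 at an unadjusted p under 0.05. All 27 libraries gave 365 (83 higher, 282 lower). Leaving out 1 library gave 17 to 511 genes, 5 to 243 higher and 12 to 377 lower. The share of lower calls was 68.8%, against 66.3% with RLE scaling, 58.0% with DESeq2, 77.3% with all 27 libraries, and 42.3% to 75.3% with 1 library left out. Most calls were higher, not lower, without LN521 replicate 1 (42.3% lower) and without LN523 replicate 1 (43.5% lower). The cause of these changes was not tested, except that the filters left 22945 and 16538 genes and lowered the median prior degrees of freedom from 87.7 to 4.58 and 4.16.

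Without the replicate block, 1 gene was called (0 higher, 1 lower) over 9 libraries and 0 over the LN523 and LN521 libraries, with 1110 and 1042 at an unadjusted p under 0.05. Chosen after seeing the data, the fit with no block and no LN521 replicate 1 called 4 genes (1 higher, 3 lower). With the block, leaving out lane 1 gave 462 (275 higher, 187 lower), and lane 2 369 (100 higher, 269 lower). The change to day 32 was called in 106 genes with the block, 0 without it, 0 with filterByExpr, 352 with all 27 libraries, and 70 to 491 with 1 library left out. The change from day 2 was called in 285 genes with the block, 65 without it, 1 with filterByExpr, and 100 to 447 with 1 library left out.

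Of 96 genes recomputed, DCX, STMN2, NANOG, and TBX5 turned direction, in 7 values over all alternatives. With 1 library left out, the log2 fold change of DCX ran from -3.26 to 0.057 and that of STMN2 from -2.94 to 0.32, both highest without LN521 replicate 1. Without lane 1 they were 0.25 and 0.27. With neither the block nor LN521 replicate 1, STMN2 was at 0.24, NANOG at 0.14, and TBX5 at -0.13.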
